A study of Caenorhabditis elegans with 12 samples.

Results

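The 9 genes described here code for proteins of the contractile apparatus of *C. elegans* muscle. They are the muscle myosin heavy chains *unc-54*, *myo-3*, *myo-1* and *myo-2*, paramyosin (*unc-15*), the giant proteins twitchin (*unc-22*) and UNC-89, tropomyosin (*lev-11*) and troponin T (*mup-2*). They were chosen by name and were found through the gene identifier that each transcript name carries, all 9 among the 46723 worm genes of the tables. Tropomyosin and troponin T belong to the thin filament, not the thick filament, so the set is called the 9 muscle genes below. All 9 had an abundance above 1 TPM (kallisto's length-corrected transcript abundance) in all 12 libraries, so none was lost to a filter on low values.

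The libraries come from vIPR, in which an mRNA is crosslinked to its proteins in living worms and pulled out of the lysate with biotinylated DNA probes. Young adults of 3 strains were used, with 1 library per condition. BS1080 carries a *gld-1::gfp* transgene and gave total RNA, a PAR-XL input and elution, a PFA-XL elution, and a cXL input and elution. DG3913 carries *gfp* at its own *lin-41* gene (*gfp::lin-41*) and gave a cXL input and elution, and wild-type N2 gave 1 cXL input and elutions with probes against the native *alg-1*, *gld-1* and *lin-41* mRNAs. The 4 elutions from the tagged strains were made with probes to the *gfp* sequence. PAR-XL joins RNA labelled with 4-thiouridine to protein by UV light in worms grown in liquid culture, cXL uses UV light without a label, and PFA-XL uses paraformaldehyde. Inputs and total RNA, 5 unselected libraries, come from whole worms, so the muscle is diluted by germline, gut, skin and neurons, and fewer muscle cells cannot be told apart from less RNA per muscle cell. The target mRNAs *gld-1* and *lin-41* are germline transcripts, and the 9 muscle genes are the somatic counterpart that none of the probes was made to capture.

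Muscle in the worm is built from repeated units in which bipolar thick filaments of myosin slide along actin thin filaments. Body-wall muscle uses the heavy chains UNC-54 and MYO-3, with MYO-3 in the middle of each filament and UNC-54 along its arms, while the pharynx, the pumping organ of feeding, uses MYO-1 and MYO-2. Paramyosin fills the filament core, twitchin and UNC-89 are very large kinase-like proteins that sit on the thick filament and at its centre line, and tropomyosin with the troponins gates the contact of myosin with actin in response to calcium.

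The genes are spread over 4 chromosomes of build WBcel235. On chromosome I lie *unc-54* (WBGene00006789, minus strand, 14855899 to 14863540), *myo-1* (WBGene00002348, minus strand, 7258921 to 7267079), *unc-15* (WBGene00006754, minus strand, 7376604 to 7383197), *unc-89* (WBGene00006820, plus strand, 4035744 to 4090961) and *lev-11* (WBGene00002978, minus strand, 14620759 to 14631254). Chromosome IV holds *unc-22* (WBGene00006759, minus strand, 11972708 to 12011007) and chromosome V holds *myo-3* (WBGene00003515, minus strand, 12226816 to 12234343). Chromosome X holds *myo-2* (WBGene00003514, plus strand, 12468061 to 12475341) and *mup-2* (WBGene00003495, minus strand, 6408464 to 6410359). All are protein-coding, but their transcripts differ greatly in size. The longest annotated transcript is 1604 bases for *mup-2*, 1686 for *lev-11*, 3406 for *unc-15*, between 6105 and 6504 for the 4 heavy chains, 22053 for *unc-22* and 24858 for *unc-89*. In a later annotation of the same build the longest model of *unc-22* has 31 exons and that of *unc-89* has 48, against 9 for *unc-54*.

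Values are TPM rescaled to a total of 1000000 over worm transcripts after ribosomal RNAs were left out, summed over the transcripts of a gene, which makes them levels per length. Estimated counts left per library ran from 12227263 to 26695650 in the 5 unselected libraries and from 268787 (N2 *alg-1* elution) to 17484505 (PFA-XL elution) in the 7 elutions, where RNA from human HEK cells, added as carrier, took 66.6% to 96.5% of the deposited TPM. The smallest estimated count of any of the 9 genes was 5266 in an unselected library and 17.0 in an elution. Intervals are 95% Poisson intervals of the estimated counts. They cover counting error only, since without replicates the variation between worm cultures and between pulldowns is unknown, and no test between conditions was run.

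In whole worms *unc-54*, the main body-wall heavy chain, was the most abundant of the 9 mRNAs. It stood at 997 TPM in total RNA, 1109 in the PAR-XL input, 956 in the BS1080 cXL input, 849 in the DG3913 cXL input and 1344 in the N2 cXL input. That placed it between rank 128 and rank 171 of 20449 protein-coding genes. The second body-wall heavy chain, *myo-3*, stood far lower, at 83.1 TPM in total RNA and, in the same order of inputs, 66.7, 85.001, 71.5 and 90.7 TPM. The level of *unc-54* was therefore 11.3 to 16.6 times that of *myo-3* in the 5 libraries, and *unc-54* made up 74.0% to 81.4% of the summed heavy chain TPM.

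The pharyngeal heavy chains went together. *myo-1* measured 134 TPM in total RNA and 146, 110.2, 82.4 and 113 TPM in the inputs, and *myo-2* measured 134 and then 152, 100.5, 72.8 and 103.6 TPM. Their ratio stayed between 0.964 and 1.13 in the 5 unselected libraries, the narrowest range of any neighbouring pair in the order of levels.

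Paramyosin mRNA (*unc-15*) stood at 751 TPM in total RNA and at 630, 524, 448 and 663 TPM in the inputs. Tropomyosin mRNA (*lev-11*) stood at 876, 841, 736, 642 and 862 TPM, and troponin T mRNA (*mup-2*) at 327, 319, 322, 282 and 389 TPM, in the same order. The giant genes were low per length but rich in reads, because reads scale with length. *unc-22* stood at 136 TPM in total RNA and at 92.6, 92.3, 82.5 and 88.2 TPM in the inputs, the latter from 21864 to 56382 estimated counts. *unc-89* stood at 127 TPM in total RNA, 87.2 in the PAR-XL input and 55.5, 49.7 and 52.4 in the 3 cXL inputs, and this was the largest spread of the 9 genes (2.56-fold from lowest to highest).

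By median level the order was *unc-54*, *lev-11*, *unc-15*, *mup-2*, *myo-1*, *myo-2*, *unc-22*, *myo-3* and *unc-89*. The steps from *unc-54* down to *myo-1* held in 5 of 5 unselected libraries. The lower ones did not: *myo-1* exceeded *myo-2* in 4 of 5, *myo-2* exceeded *unc-22* in 3 of 5, *unc-22* exceeded *myo-3* in 4 of 5 and *myo-3* exceeded *unc-89* in 3 of 5, so those neighbours were not separated by the spread between libraries. The 9 genes together held 0.258% to 0.371% of the TPM and 1.08% to 1.68% of the estimated counts in the unselected libraries.

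**Figure D1:**
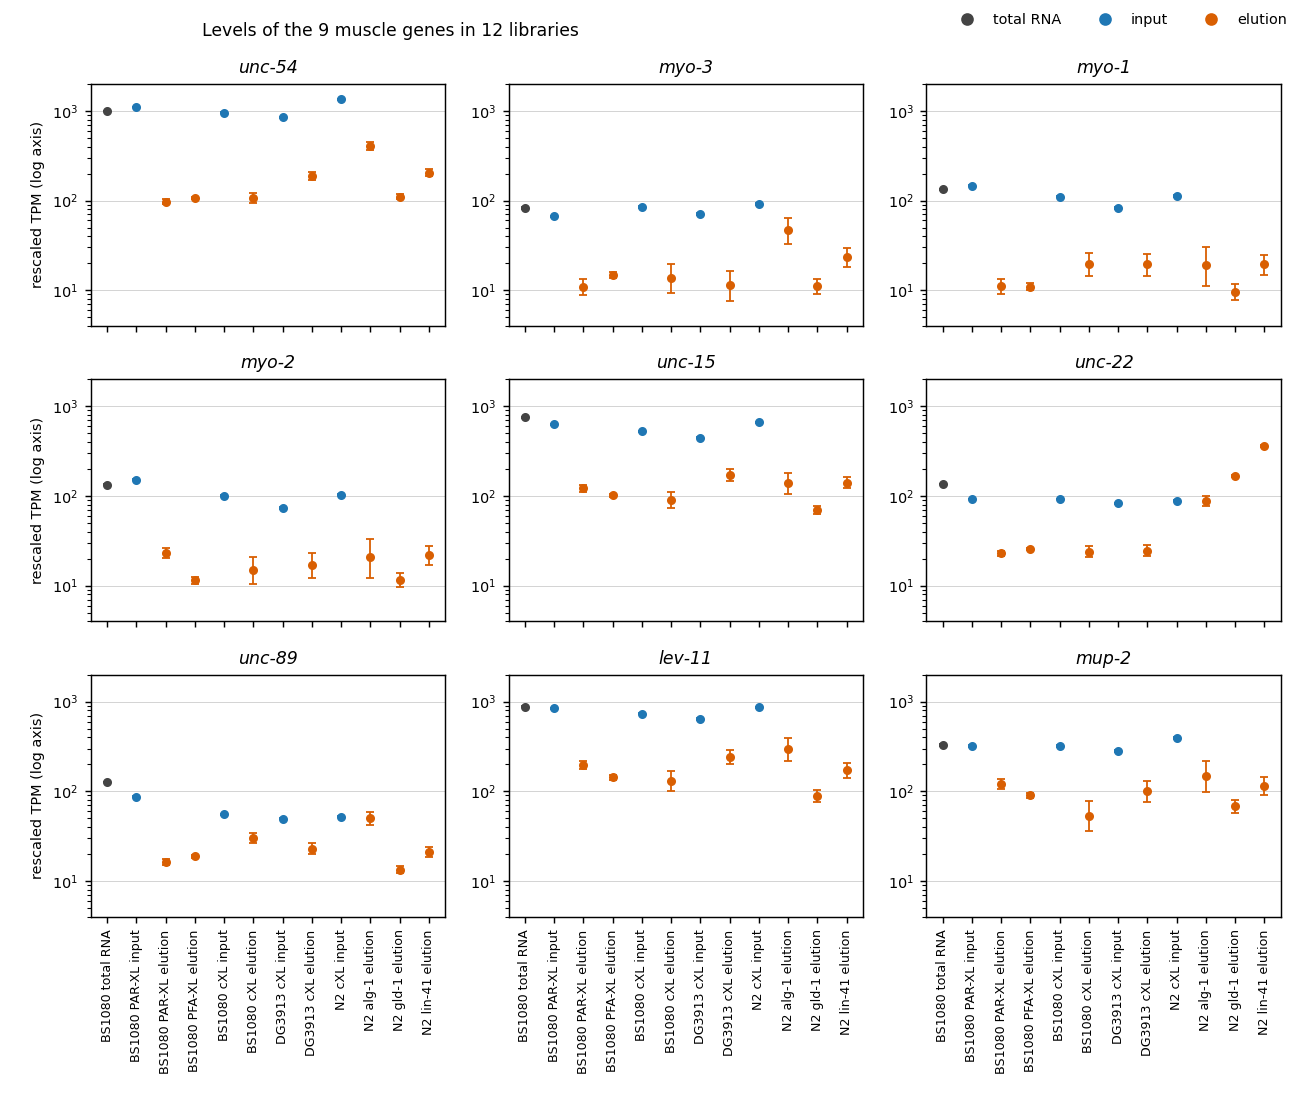
Level of each of the 9 muscle genes in the 12 libraries (rescaled TPM, log axis; bars are 95% Poisson intervals of the estimated count; grey, total RNA; blue, inputs; orange, elutions; 1 library per point). For 7 genes every elution lies under every unselected library. *unc-89* overlaps at 50.3 TPM (N2 *alg-1* elution) against 49.7 (DG3913 input), and *unc-22* reaches 165 and 358 TPM in the N2 *gld-1* and *lin-41* elutions.

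Growth, crosslink and strain were compared through the unselected libraries. Each ratio was divided by the median ratio over all genes above 1 TPM in both libraries, and a gene was called at a centred ratio of at least 1.5-fold. Between the PAR-XL input and total RNA of BS1080, 0 of the 9 genes were called in either direction, against 14.7% of 15097 genes lower and 8.14% higher. The centred log2 ratios ran from -0.27 for *unc-22* to 0.47 for *myo-2*. Before centring the ratios ran from 0.678 to 1.13, with the median gene at 0.820, so the 9 genes stayed close to their total RNA levels. The sources used here do not make clear whether the total RNA worms carried the label.

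Between the PAR-XL and cXL inputs of BS1080, 1 of 9 genes was called lower (19.1% of 12380 genes) and 0 higher (29.5%). The gene was *myo-3*, with 66.7 against 85.001 TPM and a centred log2 ratio of -0.59 (-0.63 to -0.55). This call ended without centring, when *myo-2* (152 against 100.5 TPM) and *unc-89* (87.2 against 55.5 TPM) were called higher instead. These inputs differ in crosslink, in label, in growth on plates or in liquid and in hours of growth. By the paper's methods, labelled worms were typically harvested later than those on plates. These differences cannot be told apart.

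Between the BS1080 and N2 cXL inputs, 0 of 9 genes were called, against 5.41% of 11689 genes lower and 10.4% higher. *unc-54* had the lowest value, 956 against 1344 TPM (centred log2 ratio -0.49, -0.50 to -0.48). In DG3913 against N2, 7 of 9 genes were called lower and 0 higher, against 11.1% of 11850 genes lower and 15% higher. The centred log2 ratios were -1.05 for *unc-54*, -0.95 for *unc-15*, -0.89 for *myo-2*, -0.85 for *mup-2*, -0.84 for *myo-1*, -0.81 for *lev-11* and -0.73 for *myo-3*. Only *unc-22* (-0.48) and *unc-89* (-0.46) stayed within 1.5-fold. The count rests on the centring: the median gene was 1.30 times higher in DG3913 than in N2, and without centring *unc-54* alone was called (849 against 1344 TPM). All 9 genes were nevertheless lower in DG3913 in TPM, by a ratio of 0.632 for *unc-54* up to 0.949 for *unc-89*. In the same comparison 4 of 10 intestinal, 4 of 20 germline, 2 of 7 cuticle and 5 of 17 thin filament genes were called lower, with list medians of -0.48, -0.26, -0.37 and -0.42. Other cuticle genes were called higher, at centred log2 ratios of 0.68 and 2.51. Among the thick filament partners, genes were called lower at -0.68 and -0.67. Higher calls in the remaining lists are not given here. The part of these lists in the result was not tested.

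In the elutions most of the muscle mRNAs lay far below the inputs. Each elution was divided by the input of its own strain and crosslink, the ratio was centred on the median gene, and a gene was called at 2-fold or more. The 3 N2 elutions share 1 input, and the PFA-XL elution has none. With *gfp* probes after PAR-XL, 8 of 9 genes were called lower (24.3% of 10573 genes) and 0 higher (20.3%), and after cXL in the same strain 7 of 9 lower (19.4% of 7955 genes) and 0 higher (20.4%). In the *gfp::lin-41* pulldown 4 of 9 were called lower (17.7% of 8342 genes) and 0 higher (16.9%). In N2, 7 of 9 were called lower with *gld-1* probes (21.5% of 8893 genes) and 7 of 9 with *lin-41* probes (21.4% of 8442 genes), and in both 1 gene, *unc-22*, was called higher (19.5% and 20.4% of genes). With *alg-1* probes, the shallowest library, 5 of 9 were called lower (21.3% of 6876 genes) and 0 higher (24.9%). The counts of lower calls in *gfp::lin-41* and with *alg-1* probes fell when genes were tested by their input level alone, as given in the last section.

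**Figure D2:**
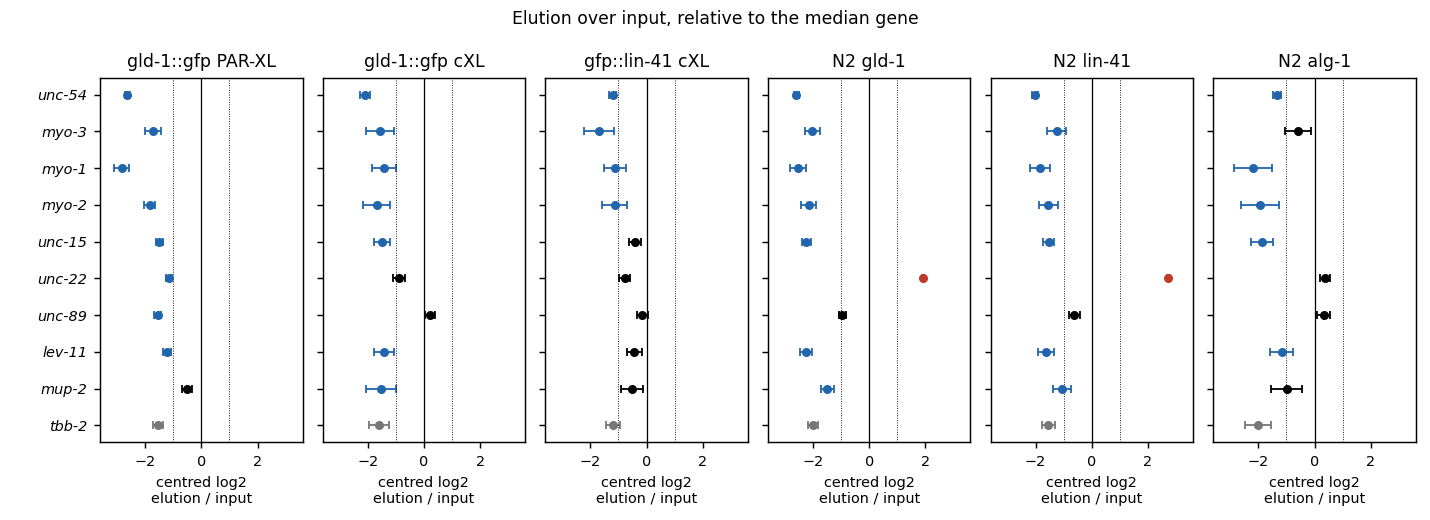
Elution over input in 6 pulldowns for the 9 muscle genes and *tbb-2* (x axis, log2 ratio of TPM minus that of the median tested gene; bars, 95% Poisson intervals; dotted lines, 2-fold; blue, called lower; red, called higher; black, neither; grey, *tbb-2*). *unc-54*, *myo-1* and *myo-2* lie left of the lower line in all 6 panels, and *unc-22* lies at 1.91 and 2.71 in the N2 *gld-1* and *lin-41* panels.

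The heavy chains are given first. In the 7 elutions *unc-54* had a lowest level of 97.6 TPM (PAR-XL), a median of 111 and a highest of 408 (N2 *alg-1*), so no elution reached the 849 TPM of the lowest input. Its centred log2 ratio was -2.63 (-2.73 to -2.53) after PAR-XL, -2.09 (-2.27 to -1.91) in the *gld-1::gfp* cXL pulldown, -1.21 (-1.34 to -1.07) in *gfp::lin-41*, -2.59 (-2.68 to -2.51) with *gld-1* probes, -2.02 (-2.13 to -1.91) with *lin-41* probes and -1.34 (-1.49 to -1.18) with *alg-1* probes. It was called lower in 6 of 6 pulldowns.

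The pharyngeal chains were also called lower in 6 of 6. *myo-1* ranged from 9.63 to 19.6 TPM over the elutions (median 19.04) and *myo-2* from 11.5 to 23.2 TPM (median 17.0). After PAR-XL *myo-1* had the lowest centred log2 ratio of any of the 9 genes, -2.84 (-3.11 to -2.56), with 105 estimated counts left in the elution. *myo-3* ranged from 10.97 to 46.6 TPM (median 13.8) and was called lower in 5 of 6 pulldowns, the exception being *alg-1*, at -0.58 (-1.03 to -0.13) from 39.0 estimated counts.

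Paramyosin and tropomyosin mRNA were depleted least in the *gfp::lin-41* pulldown. *unc-15* ranged from 69.7 TPM (N2 *gld-1*) to 172 TPM (*gfp::lin-41*), with a median of 122, and *lev-11* from 89.2 to 293 TPM, with a median of 173. In *gfp::lin-41* their centred log2 ratios were -0.42 (-0.62 to -0.21) and -0.44 (-0.71 to -0.17), short of the 2-fold line, whereas with N2 *gld-1* probes they were -2.24 (-2.40 to -2.08) and -2.26 (-2.48 to -2.05). Troponin T mRNA (*mup-2*) lay between 53.7 and 150.1 TPM (median 100.3) and was called lower in 3 of 6 pulldowns. Its highest centred ratio was that after PAR-XL, -0.51 (-0.70 to -0.33).

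The messages of the giant proteins behaved differently from the heavy chains. *unc-89* was called lower once, after PAR-XL at -1.54 (-1.67 to -1.42), and lay at 0.21 (0.02 to 0.39) in the *gld-1::gfp* cXL pulldown, -0.15 (-0.36 to 0.05) in *gfp::lin-41*, -0.96 (-1.09 to -0.83) with *gld-1*, -0.62 (-0.82 to -0.43) with *lin-41* and 0.32 (0.09 to 0.56) with *alg-1* probes. Its TPM in the N2 *alg-1* elution, 50.3, was close to the 52.4 of the N2 input.

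The message for *tbb-2*, a beta-tubulin used as the unselected reference of the pulldowns, gives a second scale that does not depend on the median gene. It stood between 807 and 1197 TPM in the inputs and between 140.1 and 255 TPM in the elutions, and its own centred log2 ratios ran from -2.01 (*alg-1*) to -1.20 (*gfp::lin-41*). Relative to it, *unc-54* was lower in 4 pulldowns by intervals that leave out 1, with ratios of 0.470 (0.411 to 0.536) after PAR-XL, 0.711 (0.543 to 0.931) in *gld-1::gfp* cXL, 0.663 (0.582 to 0.754) with *gld-1* and 0.721 (0.604 to 0.862) with *lin-41* probes. It was close to *tbb-2* in *gfp::lin-41* (0.998, 0.818 to 1.22) and exceeded it with *alg-1* probes (1.59, 1.14 to 2.22). Over the pulldowns, with the 3 tagged ones (PAR-XL, *gld-1::gfp* cXL, *gfp::lin-41*) before those for native *gld-1*, then *lin-41*, then *alg-1*, the interval lay above 1 for 3, 2, 5, 3, 3 and 6 of the 9 genes and below 1 for 3, 1, 0, 3, 1 and 0. It held 1 for 3 genes after PAR-XL, 6 in *gld-1::gfp* cXL, 4 in *gfp::lin-41*, 3 with *gld-1*, 5 with *lin-41* and 3 with *alg-1* probes. *unc-22* was above *tbb-2* in 6 of 6, by 1.32 (1.15 to 1.51) after PAR-XL and up to 19.2 (16.3 to 22.6) with *lin-41* probes.

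Twitchin mRNA (*unc-22*) was the exception among the 9. In the *gld-1::gfp* elutions it stood at 22.9 TPM after PAR-XL, 25.6 after PFA-XL and 23.9 after cXL, and in the *gfp::lin-41* elution at 24.6, against 82.5 to 92.6 TPM in the 4 inputs. In N2, against an input of 88.2 TPM, it stood at 88.3 TPM with *alg-1* probes, 165 (161 to 169) with *gld-1* probes and 358 (347 to 370) with *lin-41* probes. The 4 *gfp* probe elutions were thus all low and close to each other, and the 3 N2 elutions were all at or above their input, with no overlap.

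Its centred log2 ratios were -1.14 (-1.25 to -1.04) after PAR-XL, -0.88 (-1.09 to -0.68) in *gld-1::gfp* cXL, -0.78 (-0.98 to -0.59) in *gfp::lin-41*, 1.91 (1.87 to 1.95) with *gld-1*, 2.71 (2.66 to 2.76) with *lin-41* and 0.38 (0.21 to 0.56) with *alg-1* probes. The 2 called values rest on 5521 and 3635 estimated counts, the most of any of the 9 genes in those libraries. Of the tested genes, 94.4% lay below *unc-22* with *gld-1* probes and 97.8% with *lin-41* probes, against 21.6%, 21.9% and 23.1% in the 3 *gfp* pulldowns. Rank 183 of 8442 genes with *lin-41* probes compares with rank 7981 for *unc-54* in the same library. Before centring, the level of *unc-22* was 1.87 times the input with *gld-1* probes, which is under 2-fold, and 4.06 times with *lin-41* probes. Between *gfp* probes and probes to native transcripts, probe set and strain change together, so they cannot be told apart. The 3 N2 elutions share strain, crosslink and input and differ in probe set, with 1 library each, and their differences were not tested.

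**Figure D3:**
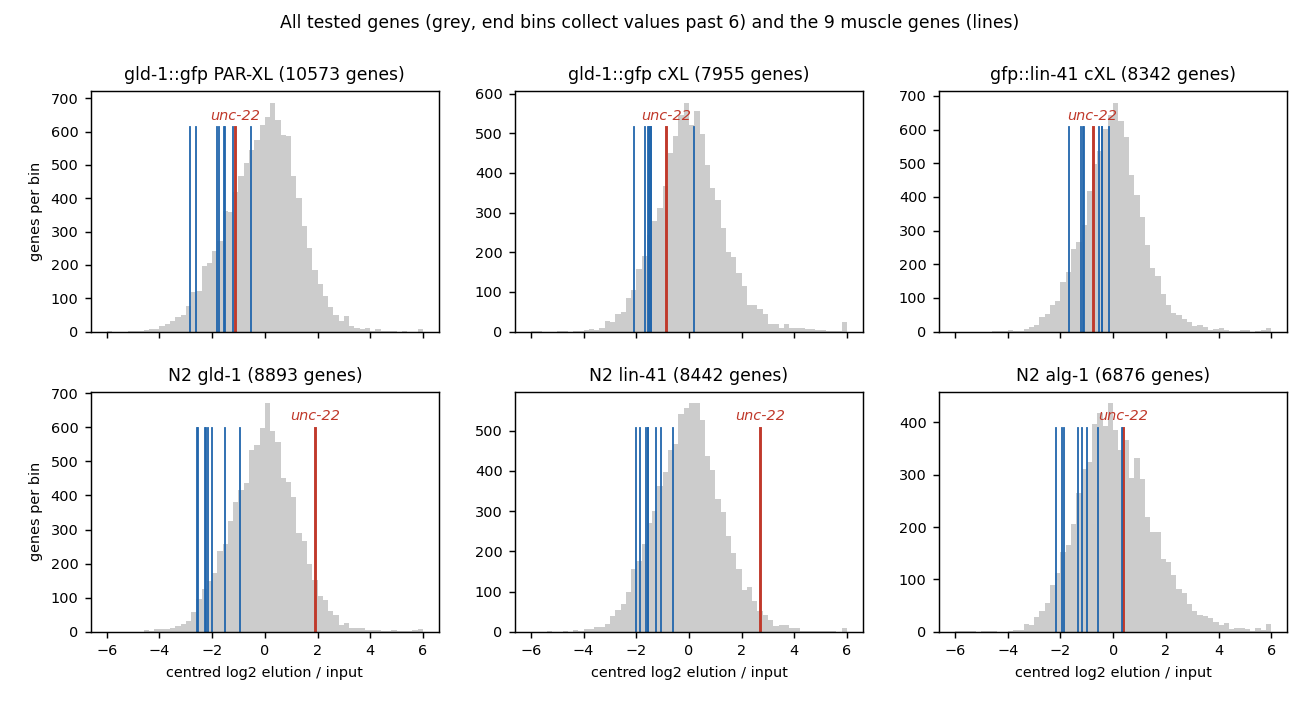
Distribution of the centred log2 elution over input ratio over all tested genes in 6 pulldowns (grey, genes per bin; lines, the 9 muscle genes, *unc-22* in red; end bins collect values past 6). With *gld-1* and *lin-41* probes in N2 the other 8 genes lie left of the middle and *unc-22* lies in the right flank, with 94.4% and 97.8% of genes lower.

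Genes with very long transcripts did not as a class share the high values of *unc-22* with *gld-1* and *lin-41* probes. Among 38 tested protein-coding genes with a transcript over 10000 bases, a length class chosen after the values were seen, the median centred log2 ratio with *gld-1* probes was 0.02 and *unc-22* ranked 5. With *lin-41* probes 39 such genes had a median of -0.01 and *unc-22* ranked 2. With *alg-1* probes 39 such genes had a median of 0.42, and *unc-22*, at 0.38, ranked 21, so it did not stand out from its length class there. In the *gfp* pulldowns it ranked 31 of 39, 33 of 37 and 37 of 41.

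The reads of *unc-22* can be split by the annotated start of the transcript to which they were assigned. Its 18 transcripts begin at 4 sites on chromosome IV, an outermost start at 12011007 (12 transcripts) and 3 internal starts at 12003102, 11999670 and 11996375, which lie 7905, 11337 and 14632 bases further along the gene, with 2 transcripts each. In the N2 input the outermost start held 78.4 of the 88.2 TPM and the innermost 0.191. With *gld-1* probes the outermost start held 71.6 TPM and the innermost 86.0, from 2776 estimated counts. The innermost start thus lay 85.8 TPM above its input value, while the other 3 differed from theirs by -0.34, -1.97 and -6.76 TPM in order outward.

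With *lin-41* probes the outermost start held 126 TPM, the start at 12003102 held 92.1, against 3.163 in the input, and the innermost held 122. With *alg-1* probes the innermost held 21.3 TPM and the outermost 67.0. In the *gfp* cXL elutions of both tagged strains the outermost start held essentially all of the 191 and 209 estimated counts. With the same probes the innermost held 4.05 TPM after PAR-XL, from 120 counts, against 0.302 in the input, and 6.85 TPM after PFA-XL, from 1084 counts. In the other unselected libraries the innermost held 3.65 TPM (BS1080 cXL input), 5.61 (DG3913 input) and 11.2 (total RNA), all above the 0.191 of the N2 input that serves the 3 native pulldowns. The transcripts share most of their exons, so these values are the division made by kallisto and not direct counts of each start.

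**Figure D4:**
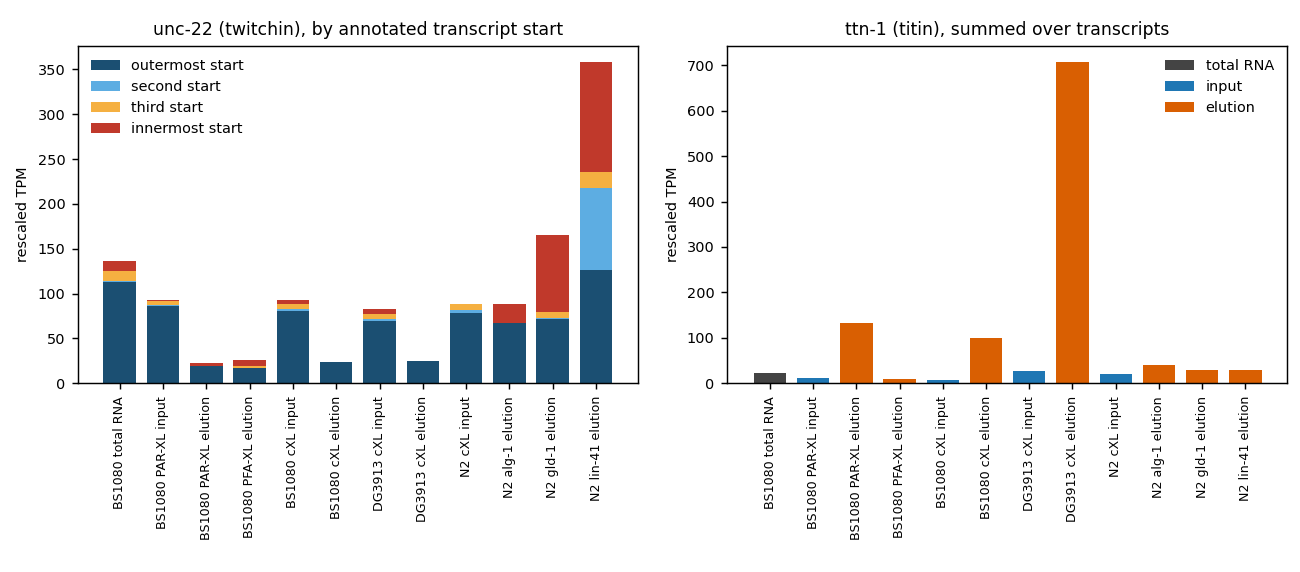
Left, level of *unc-22* in 12 libraries stacked by the annotated start of its transcripts (rescaled TPM; the starts run from outermost to innermost along the gene). Right, level of *ttn-1*, not among the 9 genes, in the same libraries. The innermost start of *unc-22* holds 0.191 TPM in the N2 input against 86.0 and 122 TPM in the N2 *gld-1* and *lin-41* elutions, and *ttn-1* reaches 708 TPM in the *gfp::lin-41* elution.

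Another giant muscle gene, *ttn-1*, which codes for a titin-like protein, had its highest values with *gfp* probes instead. It was listed with the thick filament partners and is named as the gene of that list with the highest centred ratio. It measured 132 TPM in the PAR-XL elution against 11.9 in the input, 99.0 against 7.17 in *gld-1::gfp* cXL and 708 against 26.9 in *gfp::lin-41*. Its centred log2 ratios were 4.35 (4.31 to 4.404), 4.85 (4.77 to 4.94) and 5.68 (5.65 to 5.71), above 99.5% or more of the tested genes. With *gld-1*, *lin-41* and *alg-1* probes in N2 it lay at 1.48, 1.17 and 1.37, or 28.4, 28.5 and 40.7 TPM against an input of 20.4. The PFA-XL elution, also made with *gfp* probes, held only 8.85 TPM.

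Set against the germline targets, *unc-54* was the more abundant mRNA before selection and by far the less abundant after it. In the unselected BS1080 libraries *unc-54* was 1.95 to 3.51 times as abundant as *gld-1*, transgene and native gene summed, and 5.47 to 10.9 times as abundant as *lin-41*. In the elutions *gld-1* stood at 583859 TPM after PAR-XL, 666766 after PFA-XL and 652439 after cXL, or 5982, 6228 and 6087 times *unc-54*. In the DG3913 elution the tagged *lin-41* stood at 575257 TPM, 3049 times *unc-54*. In N2 the target exceeded *unc-54* 2961-fold with *gld-1*, 2822-fold with *lin-41* and 517-fold with *alg-1* probes.

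Germline transcripts that were not the target of a pulldown can be set beside *unc-22*. With *gld-1* probes *lin-41* stood at 371 TPM and a centred log2 ratio of 1.86 (1.80 to 1.93), next to the 1.91 of *unc-22*. With *lin-41* probes *gld-1* stood at 2085 TPM and 2.57 (2.497 to 2.64), next to the 2.71 of *unc-22*. With *alg-1* probes, in contrast, *gld-1* stood at 11423 TPM and *lin-41* at 2220 TPM, 4.71 and 3.82 in centred log2 ratio, while *unc-22* was at 0.38. With *gfp* probes in BS1080, where *lin-41* is not a target, it lay at 1.70 after PAR-XL and 1.42 after cXL, and *unc-22* at -1.14 and -0.88.

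Most other genes of the contractile apparatus also lay below the median gene. Of 17 thin filament genes (actins, troponins and actin-binding proteins), 12 of 17 tested were called lower after PAR-XL, 13 of 17 in *gld-1::gfp* cXL, 8 of 17 in *gfp::lin-41*, 11 of 16 with *gld-1*, 10 of 16 with *lin-41* and 7 of 14 with *alg-1* probes, with 0, 2, 1, 0, 1 and 2 called higher. The list medians of the centred log2 ratio were -1.80, -1.53, -0.89, -1.77, -1.39 and -0.96, against -1.54, -1.48, -0.78, -2.15, -1.54 and -1.17 for the 9 genes in the same order and 0 for all tested genes by construction. *act-1*, a muscle actin and the most abundant of the list, went from 3264 TPM in the N2 input to 314 with *gld-1* probes, and from 1509 in the PAR-XL input to 189. *tnc-2*, a troponin C, had the lowest ratio, -3.46 (-5.46 to -1.46) after PAR-XL, from only 2 estimated counts. *tni-3*, a troponin I, had the highest, 2.63 (2.17 to 3.09) in *gld-1::gfp* cXL, from 40.0 estimated counts.

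Of 9 thick filament partners, 7 of 9 tested were called lower after PAR-XL, 3 of 7 in *gld-1::gfp* cXL, 3 of 8 in *gfp::lin-41*, 6 of 8 with *gld-1*, 5 of 7 with *lin-41* and 5 of 7 with *alg-1* probes, and the 1 gene called higher each time was *ttn-1*. *mlc-2*, a muscle myosin regulatory light chain, was the most abundant, with 915 TPM in the N2 input and 121 TPM with *gld-1* probes. Its near copy *mlc-1* had the lowest ratio, -2.58 (-3.01 to -2.15) with *gld-1* probes, and reads of the pair can be divided between them.

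Genes of muscle attachment and excitation had medians nearer to 0. Of 16 such genes, 8 of 15 were called lower after PAR-XL, 5 of 12 in *gld-1::gfp* cXL, 4 of 14 in *gfp::lin-41*, 5 of 14 with *gld-1*, 6 of 13 with *lin-41* and 4 of 12 with *alg-1* probes, and the medians ran from -1.10 to -0.23, with 1 or 0 called higher. *sca-1*, the calcium pump of the sarcoplasmic reticulum, was the most abundant and lay between -1.26 and -0.24. *atn-1*, the alpha-actinin of the dense bodies, had the lowest ratio, -2.73 (-3.99 to -1.46) in *gld-1::gfp* cXL, and *pat-3*, a beta-integrin also used outside muscle, had the highest, 1.93 (1.67 to 2.19) in the same pulldown.

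Non-muscle myosins lay around the median gene. Of 9 such genes, 1 of 9 was called lower after PAR-XL, 0 of 8 in *gld-1::gfp* cXL, 2 of 8 in *gfp::lin-41*, 3 of 8 with *gld-1*, 1 of 9 with *lin-41* and 2 of 7 with *alg-1* probes, and the medians lay between -0.43 and 0.46. In the same order 2, 2, 1, 1, 1 and 1 were called higher. The regulatory light chain *mlc-4*, the most abundant, was at 1.69 (1.51 to 1.86) after PAR-XL and -1.20 (-1.71 to -0.69) with *gld-1* probes. *nmy-1*, a non-muscle myosin II heavy chain, stood out in the *gfp* cXL elutions, with 1434 TPM against 103 in *gld-1::gfp* and 502 against 85.1 in *gfp::lin-41*, or 4.86 (4.80 to 4.91) and 3.52 (3.44 to 3.61) in centred log2 ratio. After PAR-XL it lay at 0.21, with 76.2 against 121 TPM. *hum-5*, a class I myosin, had the lowest ratio of this list, -2.29 (-3.56 to -1.03) with *lin-41* probes, and 2.39 (1.961 to 2.82) with *alg-1* probes.

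Among other tissues, intestinal genes had low medians as the muscle genes did, and germline genes had medians nearer to 0 or above it. The medians for 10 intestinal genes were -1.15, -1.15, -1.12, -1.64, -1.80 and -1.22 in the 6 pulldowns, in the order used above, over 8 to 10 tested genes. Single intestinal genes departed far from these medians. With *gld-1* probes *vit-6* stood at 104127 TPM against 7074 in the N2 input (4.89). *cpr-1* lay at 4.55 in *gld-1::gfp* cXL and 3.55 in *gfp::lin-41*. After PAR-XL *vit-2*, *vit-5*, *vit-6* and *cpr-1* lay between 0.45 and 0.74, and the rest of the list below 0. Those for 20 germline and oocyte genes were 1.07, 0.10, 0.17, -0.14, -0.36 and -0.45, with 20 of 20 tested in each. The summed TPM of the germline list was 2535 to 4764 in the unselected libraries and 2324 to 3415 in the elutions, while that of the 9 muscle genes went from 2579 to 3705 down to 484 to 1216. In the elutions the target took 21.1% to 66.6% of the TPM. With the target left out of the total, the 9 genes summed to 2579.5 to 3707 TPM in the unselected libraries and 817 to 2565 in the elutions, and the germline list to 2536 to 4764 and 3205 to 8041. Cuticle genes (4 to 7 tested of 8) had medians from -1.19 to 0.96, neuronal genes (4 to 8 tested of 8) from -0.60 to 0.58 and sperm genes (1 to 6 tested of 7) from -1.66 to 0.51.

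**Figure D5:**
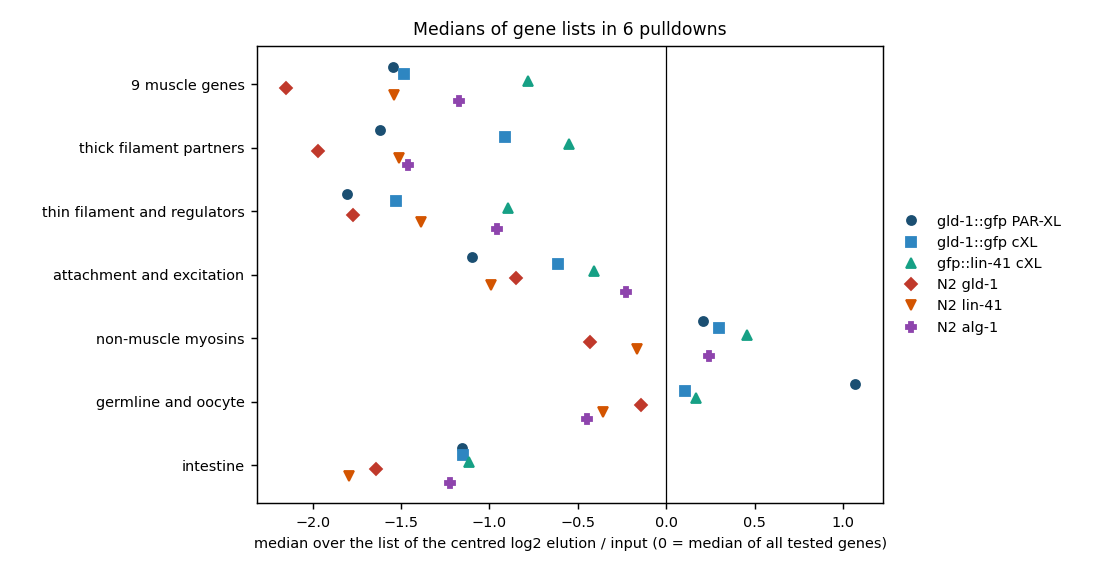
Median centred log2 elution over input ratio of 7 gene lists in 6 pulldowns (each symbol 1 pulldown; 0 is the median of all tested genes). The 9 muscle genes lie between -2.15 and -0.78, near the thin filament genes and the intestinal genes, and the non-muscle myosins lie between -0.43 and 0.46.

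Among the 3 elutions of the *gld-1::gfp* transcript, crosslinks were compared directly. For PFA-XL over PAR-XL, 0 of 9 genes were called at 2-fold in either direction (10.5% of 9002 genes lower, 7.78% higher). *myo-2* had the lowest value, 11.5 against 23.2 TPM (centred log2 ratio -0.75, -0.97 to -0.52), and *myo-3* the highest, 14.96 against 10.97 TPM (0.71, 0.41 to 1.02). For PAR-XL over cXL, 2 of 9 were called lower (16% of 7516 genes) and 0 higher (11.6%). These were *unc-89*, 16.3 against 30.6 TPM (-1.31, -1.53 to -1.09), and *myo-1*, 11.1 against 19.6 TPM (-1.22, -1.72 to -0.72). Neither call held without centring, when *mup-2* was called higher (122 against 53.7 TPM). The *gld-1::gfp* PAR-XL elution enters both comparisons. By the paper's methods, rRNA was removed from the PAR-XL and PFA-XL elutions with the RiboMinus kit, and PFA-XL lysates were also sonicated. PAR-XL worms were labelled, grown in liquid and typically harvested later. These differences come with the crosslink and cannot be told apart from it.

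The division of a gene's reads among its transcripts differed between libraries. For *mup-2*, *unc-15* and *unc-22* it differed between the 8 after cXL and the other 4, and for *myo-1* mainly between elutions and unselected libraries. For *mup-2*, transcript T22E5.5.1 took 88.0% of the estimated counts in total RNA, 56.5% in the PAR-XL input and 5.78% and 28.1% in the elutions after PAR-XL and PFA-XL, but 0% in all 8 cXL libraries. For *unc-15*, F07A5.7a.2 took 11.9% of total RNA counts and 29.4% of those of the PAR-XL input, against 82.9% to 87.01% in the 3 cXL inputs. For *myo-1*, R06C7.10.2 took 84.5% in total RNA and 92.2% to 97.9% in the 4 inputs but at most 1.31% in 6 of the 7 elutions, the PFA-XL elution holding 51.0%. For *unc-22*, transcripts that end at 11972708 took 63.5% to 97.7% in the 8 cXL libraries and 0.41% to 6.76% in the other 4. Gene totals are used above for this reason, except where *unc-22* is split by start. The PFA-XL elution came, as the cXL libraries did, from worms grown on plates without a label, and held 42.9% for F07A5.7a.2. By the paper's methods it shared its rRNA removal kit with the PAR-XL elution. Those methods do not name this kit for total RNA or the PAR-XL input. They also do not assign their different sequencing modes to single libraries. The cause of the differences in division was not tested. Totals were whole numbers, within 0.01, in 12 of 12 libraries for *mup-2* and in 4 of 12 for *unc-54* and *myo-2*, so some reads of the heavy chains were shared with other genes.

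Likeness of pattern was measured as Pearson's r over the 12 libraries, using log2(TPM + 1) minus the library median of the 6489 genes with at least 10 TPM in all 5 unselected libraries. Against the mean of the other members, r was 0.960 for *unc-54*, 0.926 for *myo-1*, 0.914 for *myo-2*, 0.911 for *myo-3*, 0.912 for *unc-15*, 0.902 for *lev-11*, 0.8798 for *mup-2*, 0.713 for *unc-89* and 0.0271 for *unc-22*. The 5 other genes most like the mean of all 9 were *asp-1* (0.979), an intestinal aspartyl protease, *aagr-3* (0.973), *hacl-1* (0.971), *aco-2* (0.970), a mitochondrial aconitase, and *col-20* (0.966), a cuticle collagen. The 12 points share strains, an input and the split into inputs and elutions, so these r are descriptions, and 4 of the 5 genes were not chosen for any tissue list.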

How the data were processed

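RNA of young adult worms was sequenced in 12 libraries, 1 per condition. Estimated counts and TPM per transcript were made by the authors with kallisto 0.43.1 against worm transcripts (WBcel235), and deposited as 1 table per library. By the study's methods, human transcripts were added to the index only for elutions that held human carrier RNA. Transgene and spike-in sequences were added only where they applied. Elutions and inputs were therefore not quantified against the same index. The labels name rRNA depletion and a stranded kit, while the study's methods name a different TruSeq RNA kit and do not call it stranded. Those methods describe rRNA depletion with RNase H or with the RiboMinus kit, the latter for the PAR-XL and PFA-XL elutions. With RNase H, the oligonucleotides were directed at worm rRNA for inputs and at human rRNA for elutions. Elutions and inputs therefore also differ in how rRNA was depleted. Deposited totals ran from 8933723 to 77518684 estimated counts per library.

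Entries were summed per gene, with tagged transgenes kept apart from native genes. Human and spike-in entries, 22 rRNA entries and 3 entries that overlap rRNA genes, a class the study also left out, were removed, and the deposited TPM of the rest was rescaled to 1000000. These 3 held 0.0671% to 1.24% of TPM in unselected libraries and 7.30% to 16.4% in elutions. Genes above 1 TPM in both libraries were tested, ratios were centred on the median gene, and calls were made at 2-fold for elutions and 1.5-fold between unselected libraries, in 12 comparisons. With 1 library per condition no p-value was computed. The ratio code was checked on simulated data. The 9 genes and all lists (thin filament, thick filament partners, attachment and excitation, non-muscle myosins, germline, intestine, cuticle, neurons, sperm) were chosen with earlier results of these data known. From each muscle or myosin list the text names the gene with the highest mean TPM over the unselected libraries and those with the lowest and highest centred ratio. Other genes named are the 3 targets, *tbb-2*, the 5 most alike in pattern, and *vit-2*, *vit-5*, *vit-6* and *cpr-1* of the intestine list. Alternatives were CPM, no centring, a filter on the reference library alone at 10 TPM, other folds, the overlapping entries kept, the target left out of the total, and fewer members. Analyses used Python 3.11.15 (pandas 2.3.3, numpy 2.4.6, scipy 1.17.1), and plots matplotlib 3.10.9.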

Additional observations from a re-analysis of the deposited data

Results flagged for a closer look

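Each of the 9 genes was examined for a library far from the others among the 4 inputs and among the 7 elutions, 18 groups of values in all. A value was marked by its gap to the next one (Dixon's rule at the 5% level), which assumes replicates. The libraries differ in strain, crosslink or probe, and the genes share libraries, so the share that chance alone would mark is not known. The N2 *alg-1* elution stood far above the other elutions for *unc-54* (408 TPM, next highest 205) and for *myo-3* (46.6 TPM, next highest 23.5). It is the shallowest library, with 268787 estimated counts, of which 344 and 39.0 fell on these genes. The N2 *lin-41* elution stood far above the others for *unc-22* (358 TPM, next highest 165). The PAR-XL input stood far above the other inputs for *unc-89* (87.2 TPM, next highest 55.5).

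The centred log2 ratio of *unc-22* lay below 0 in 3 of 3 pulldowns with *gfp* probes (lowest -1.14) and above 0 in 3 of 3 with probes to native transcripts in N2 (highest 2.71). This difference was not tested, and the 3 N2 elutions share their input.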

How the results depend on the processing

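The smallest estimated count of a muscle gene was 17.0, in an elution, and differences between pulldowns are not separated from culture and handling. No paired analysis was possible because each condition has 1 library, so that no replicate could be left out, and a test across the pulldowns, which differ in strain, crosslink or probe, was not run. Of 108 levels, 106 moved beyond their counting interval with CPM, 57 with the target left out of the total and 31 with the overlapping entries kept. Of 12 medians of the 9 genes, 2 moved with CPM, 5 without *myo-1* and *myo-2* and 3 without *unc-54*. With CPM or with the overlapping entries kept, no count of called genes moved by over 1.5 times. At 4-fold, lower calls were 2 after PAR-XL, 1 in *gld-1::gfp* cXL, 0 in *gfp::lin-41*, 1 with *lin-41* probes and 1 with *alg-1* probes, *unc-22* was no longer called higher with *gld-1* probes (0), and 0 genes were lower for PAR-XL over cXL elutions. At 1.5-fold, 1 gene was lower and 1 higher for PFA-XL over PAR-XL elutions and 1 higher for PAR-XL over cXL. At 2-fold, 0 genes were lower in the PAR-XL against the cXL input and 1 in DG3913 against N2. Without centring, lower calls were 9 in *gfp::lin-41*, 0 for the PAR-XL against the cXL input (2 higher), 1 for DG3913 against N2, 1 for PFA-XL over PAR-XL and 0 for PAR-XL over cXL elutions (1 higher), and higher calls with *gld-1* probes were 0. With the target left out of the total and no centring, lower calls were 1 in *gfp::lin-41*, 3 with *lin-41* probes, 0 for the PAR-XL against the cXL input (2 higher) and 1 for DG3913 against N2. With genes tested by the reference library alone, lower calls were 1 in *gfp::lin-41*, 3 with *alg-1* probes (1 higher) and 0 for the PAR-XL against the cXL input (2 higher). A stricter or looser fold moves counts by construction, and for the other settings the cause was not tested. The share of all tested genes called under each alternative is not given here. These counts therefore describe the 9 genes only and are not set against a background.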
